A study of Mus musculus with 8 samples.

Results

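Kinesins and tubulins were followed at the RNA level through the maturation of mouse oocytes and in mature oocytes made to express BTG4 or a mutant of it. The genes were chosen by symbol alone, as every symbol that starts with Kif and a digit or c, or with Tuba, Tubb or Tubg and a digit or cp. The rule found 51 of the 15962 genes listed for all 8 libraries, namely 34 kinesins and 17 genes for alpha-tubulins, beta-tubulins, gamma-tubulins and proteins of the gamma-tubulin complex. The rule itself uses no expression level, but the genes were chosen with earlier results of these data known. The rule passed over 4 symbols that end in -ps, and 1 further symbol, *Kif6*, was listed only for the oocytes without injection, at no more than 0.129 TPM.

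Kinesins are motor proteins that use ATP to move along microtubules or to take their ends apart, and microtubules are polymers of alpha- and beta-tubulin pairs. Gamma-tubulin and its complex proteins start new microtubules, which matters in the mouse oocyte because its meiotic spindle forms without centrioles. A fully grown oocyte hardly transcribes, so its stored RNA is regulated by decay, tail shortening and tail lengthening. BTG4 is an adaptor that brings the CCR4-NOT deadenylase to maternal mRNAs.

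The 8 libraries fell into 4 groups of 2. GV oocytes, held in prophase of the first meiotic division, and MII oocytes, arrested in metaphase of the second, were labelled as wild type and received no injection. Btg4wt and Btg4tm were MII oocytes in which BTG4 was overexpressed from microinjected Myc-tagged cRNA. It was wild type in Btg4wt and had 3 phosphorylated residues altered in Btg4tm, while both groups kept their own *Btg4* gene. The study reports that either injected form seemed to lower the amount of the oocyte's own BTG4, and it left this to be clarified. The animals were outbred ICR females, 6 weeks old where the methods give an age, and each library pooled 15 oocytes without their zonae. The GV and MII oocytes without injection are described as taken from culture in vitro. No oocytes injected with a control RNA were analysed here. The labels do not say whether the 2 libraries of a group came from separate animals, so p-values measure the spread between these libraries.

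RNA was reverse transcribed from an oligo(dT) primer and given as TPM, a share of all transcripts that is scaled to the same total in each library. TPM divide the reads of a gene by its length, which allows a rough comparison of levels between genes. The lengths used are not given, and levels of near copies are uncertain. A change in RNA level and a change in poly(A) tail cannot be told apart in such libraries, nor can fewer transcripts in every oocyte and fewer oocytes that hold them. Per library the TPM of the listed genes added up to 996199 to 998615, replicates of a group correlated at 0.982 to 0.987 across genes (Pearson's r, log2 scale), and read depth is unknown. The scaling divided each library by a median-of-ratios factor, 0.948 to 1.11. The share of mitochondrially encoded RNA was at 0.626% and 0.652% for GV, 2.71% and 2.60% for MII, 2.05% and 1.75% for Btg4wt, and 0.765% and 1.02% for Btg4tm. Scaling to those RNAs instead moved the median log2 fold change of all genes to -1.74 for MII over GV and to 0.88 for Btg4tm over Btg4wt, where the main scaling left them at -0.0017 and 0.0077. All changes given here are relative to the median gene. All 11 oocyte markers were listed, with a summed level of 34510 to 49030 scaled TPM, and 3 of them were called lower in MII and higher in Btg4tm. Of 12 cumulus and granulosa cell markers 5 were listed, and their sum was 22.8 and 22.1 scaled TPM in GV, 30.8 and 33.3 in MII, 31.4 and 27.1 in Btg4wt and 32.4 and 26.7 in Btg4tm. Of the 3 that were tested, *Inha* was called lower in MII and higher in Btg4tm, at 9.83 scaled TPM or less, and its part in the results was not tested. *Btg4* itself was at 2650 and 2794 scaled TPM in GV, 5792 and 6002 in MII, 5178 and 5510 in Btg4wt and 3725 and 4068 in Btg4tm, so the injected groups were not above MII, and injected and own RNA cannot be told apart in these values.

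The tubulin genes encode proteins that are nearly alike along their length and differ at their tails, which carry the sites of glutamylation and tyrosination. The last 45 coding bases of the tubulins that the results turn on are shown to mark how far their RNAs can be told apart, with the stop codon in capitals. They are from the longest complete coding transcript of GENCODE M21 on GRCm38, 5′ to 3′, and each is the end of the coding part of its gene, on chromosome 2 for *Tubb4b*, 13 for *Tubb2a* and *Tubb2b*, 8 for *Tubb3*, 17 for *Tubb5*, 15 for *Tuba1b* and *Tuba1c*, 6 for *Tuba3a* and *Tuba3b* and 1 for *Tuba4a*.
Tubb4b: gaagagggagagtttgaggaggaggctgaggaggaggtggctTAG
Tubb2a: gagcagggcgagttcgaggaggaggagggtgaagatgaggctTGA
Tubb2b: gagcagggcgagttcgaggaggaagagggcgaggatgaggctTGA
Tubb3: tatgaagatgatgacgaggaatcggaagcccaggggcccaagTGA
Tubb5: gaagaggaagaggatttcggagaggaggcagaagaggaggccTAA
Tuba1b: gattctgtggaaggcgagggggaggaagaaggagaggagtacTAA
Tuba1c: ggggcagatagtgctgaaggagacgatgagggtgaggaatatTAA
Tuba3a: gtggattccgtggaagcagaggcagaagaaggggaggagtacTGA
Tuba3b: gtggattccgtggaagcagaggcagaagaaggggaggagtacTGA
Tuba4a: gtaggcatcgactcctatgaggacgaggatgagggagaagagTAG
*Tuba3a* and *Tuba3b* ended in identical letters and were 97% identical over their coding sequences. *Tuba1b* and *Tuba1c* were 97.9% identical, *Tubb2a* and *Tubb2b* 96.5%, and *Tubg1* and *Tubg2* 93.3%. The isotype tail of *Tubb3* was 52.1% identical to that of *Tubb4b*, although their coding sequences were 82% identical. Reads with a low mapping quality were dropped when the counts were made, so levels of near copies are uncertain. Of the 50-base words in the exons of *Tuba1b*, 83.1% also occurred in another gene, and the shares were 61% for *Tuba1c*, 55.5% for *Tubb4b* (in its pseudogenes), 49.6% for *Tubb2a*, 35.3% for *Tuba3a* and 29.5% for *Tuba3b*. No such word of *Tubb3*, *Tubb6*, *Kif17*, *Kif14*, *Kif23*, *Kif20b* or *Kif18a* was shared.

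The limma fit was run on 13968 genes, those that reached 1 TPM in 2 or more libraries, and 46 of the 51 kinesin and tubulin genes were among them. The 5 that were not, *Kif1c*, *Kif3c*, *Kif26a*, *Kif26b* and *Kif28*, had means of 0.0992 to 0.466 scaled TPM. Genes were called at an adjusted p under 0.05 (Benjamini-Hochberg, over all genes) together with a log2 fold change beyond 1 in either direction, on the log2(scaled TPM + 1) scale, which understates the change of low genes. Log2 fold changes are given ± their standard error (SE). Where groups are said to be apart or not to overlap, this describes the values and adds no support to a call. The share of all genes without overlap was not counted. With 2 libraries against 2, full separation has a two-sided p of 0.333 in an exact permutation test. In MII compared with GV, 7 of the 46 were called higher, where 12.5% of all genes were, and 10 were called lower, where 24% of all genes were. Alpha- and beta-tubulins made up 6 of the 10 lower genes, and the 7 higher genes were all kinesins. The median log2 fold change was -1.52 over the 11 alpha- and beta-tubulins, 0.31 over the 29 kinesins and 0.09 over the 46 together. On the adjusted p alone 16 of the 46 were higher, where 29.8% of all genes were, and 15 lower, where 32.8% were. Under the mitochondrial scaling 38 of the 46 were lower in MII, where 81.6% of all genes were, and none was higher, where 0.05% were. The log2 fold change of every kinesin tested was then below 0.

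Among the beta-tubulins, *Tubb4b* was the most abundant in GV oocytes and lost the most. It is a beta-tubulin found in most tissues, and its gene lies on the minus strand of chromosome 2 from 25222160 to 25224702. *Tubb4b* was at 894 and 1166 scaled TPM in the GV libraries and at 69.7 and 76.5 in the MII libraries. Every GV library was thus far above both MII libraries. The fold change was 0.0724 (log2 fold change -3.79 ± 0.13, adjusted p = 4.91e-07). *Tubb6* fell too, from 420 and 514 to 131 and 131 scaled TPM (log2 fold change -1.82 ± 0.11, adjusted p = 4.48e-06). *Tubb5*, the isotype most widely used by dividing cells, was at 107 and 132 in GV and 36.8 and 45.04 in MII and also fell (log2 fold change -1.52 ± 0.18, adjusted p = 0.000121). In all 3 the groups did not overlap. *Tubb2a* stood at 434 and 435 in GV and 222 and 245 in MII, a gap that passed the adjusted p but not the fold (log2 fold change -0.89 ± 0.14, adjusted p = 0.000658), though it passed both on TPM as deposited, at -1.05. *Tubb3*, best known as the isotype of neurons, was at 189 and 271 in GV and 242 and 239 in MII, and here the MII values lay between the GV values (log2 fold change 0.09 ± 0.19, adjusted p = 0.705). *Tubb2b* was low throughout, from 3.71 to 10.6 scaled TPM in the 8 libraries, and was not called in any comparison.

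Among the alpha-tubulins, *Tuba4a*, the isotype whose gene ends without the codon for the terminal tyrosine, fell the most. Its levels were 88.3 and 117 scaled TPM in GV and 9.303 and 8.403 in MII. The groups were far apart (log2 fold change -3.39 ± 0.17, adjusted p = 1.82e-06). Its gene lies on the minus strand of chromosome 1 from 75214228 to 75219865, and 48.8% of its 50-base words also lie in exons of other genes, chiefly the overlapping *Stk16*. *Tuba3a* had the highest scaled TPM of the alpha-tubulins in GV oocytes, at 432 and 584, and was at 98.3 and 107 in MII (log2 fold change -2.28 ± 0.16, adjusted p = 1.05e-05). *Tuba1b* went from 47.1 and 47.2 to 8.18 and 11.6 (log2 fold change -2.16 ± 0.18, adjusted p = 2.41e-05). These 3 fell without overlap of the groups. *Tuba3b*, at 144 and 198 in GV and 99.1 and 108 in MII, passed the adjusted p but not the fold (log2 fold change -0.7031 ± 0.18, adjusted p = 0.00934). *Tuba1c* was at 105 and 126 in GV and 122 and 122 in MII, with the MII values inside the GV range (log2 fold change 0.09 ± 0.13, adjusted p = 0.592). The falls of the 6 called tubulins kept their direction and their call under each of the other scalings.

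**Figure D1:**
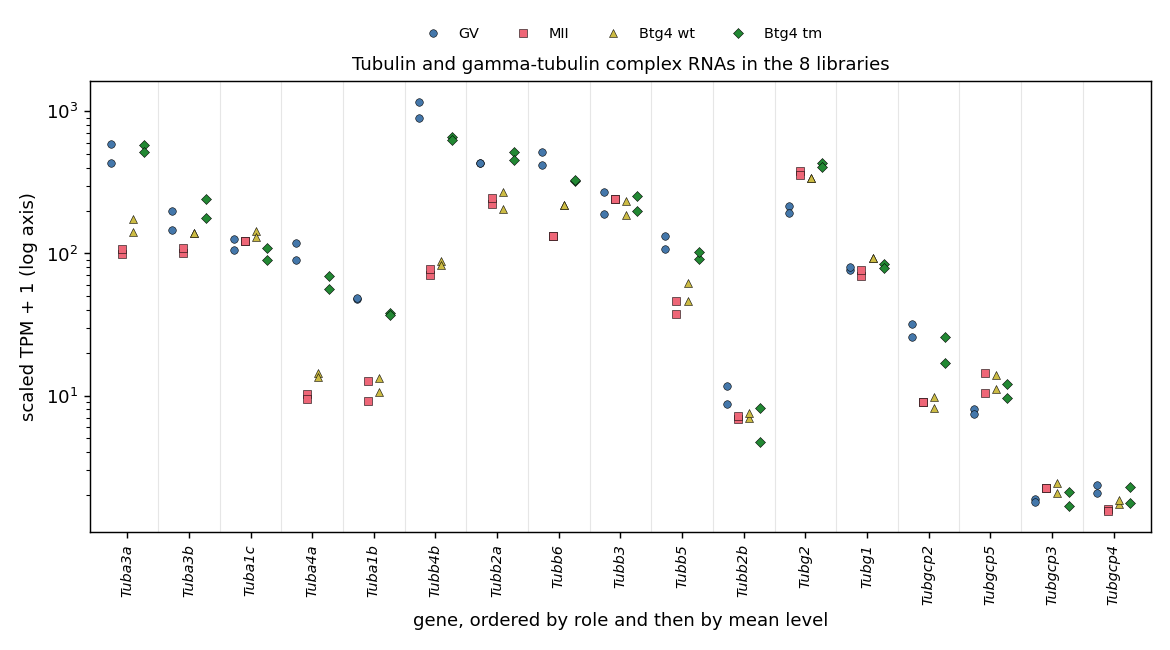
Scaled TPM + 1 on a log axis (vertical) for the 17 tubulin and gamma-tubulin complex genes (horizontal, by role and then by mean level), 1 point per library and 1 colour and shape per group. Tubb4b falls from 894 and 1166 in GV to 69.7 and 76.5 in MII and stands at 654 and 627 in Btg4tm, while Tubb3 spans 186 to 271, Tuba1c 88.7 to 143 and Tubg1 68.3 to 92.6 over the 8 libraries.

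The makeup of the tubulin pool differed too, a measure that no scaling of the library can alter. Shares and sums cover only the 5 alpha-tubulin and 6 beta-tubulin genes that the rule found. The alpha-tubulin-like gene *Tubal3*, outside the rule, was at 87.0 to 93.1 scaled TPM over the 8 libraries and is not in them. *Tubb4b* held 43.6% and 46.1% of summed beta-tubulin TPM in GV and 9.85% and 10.3% in MII. *Tubb3* went the other way, from 9.21% and 10.7% to 34.3% and 32.2%, and *Tubb2a* from 21.2% and 17.2% to 31.4% and 33.0%. In MII oocytes those 2 isotypes therefore held most of the beta-tubulin TPM. Shares between genes also depend on how many reads could be assigned. Other genes shared 55.5% of the 50-base words of *Tubb4b* and 49.6% of those of *Tubb2a*, but none of *Tubb3*. Among the alpha-tubulins, *Tuba3a* held 52.9% and 54.4% in GV and 29.2% and 29.9% in MII, and *Tuba1c* rose in share from 12.9% and 11.7% to 36.3% and 34.2%. The near copies *Tuba3a* and *Tuba3b* stood in a ratio of 3 and 2.94 in GV and 0.992 and 0.986 in MII, which holds only as far as their reads were assigned correctly. All these shares were apart in every library, but with 2 libraries against 2 an exact permutation test cannot go below a two-sided p of 0.333, so they are given as a description. Summed beta-tubulin RNA was 2290 ± 336 scaled TPM in GV (SD, n = 2) and 725 ± 24.6 in MII, and summed alpha-tubulin RNA 945 ± 181 and 347 ± 14.0.

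**Figure D2:**
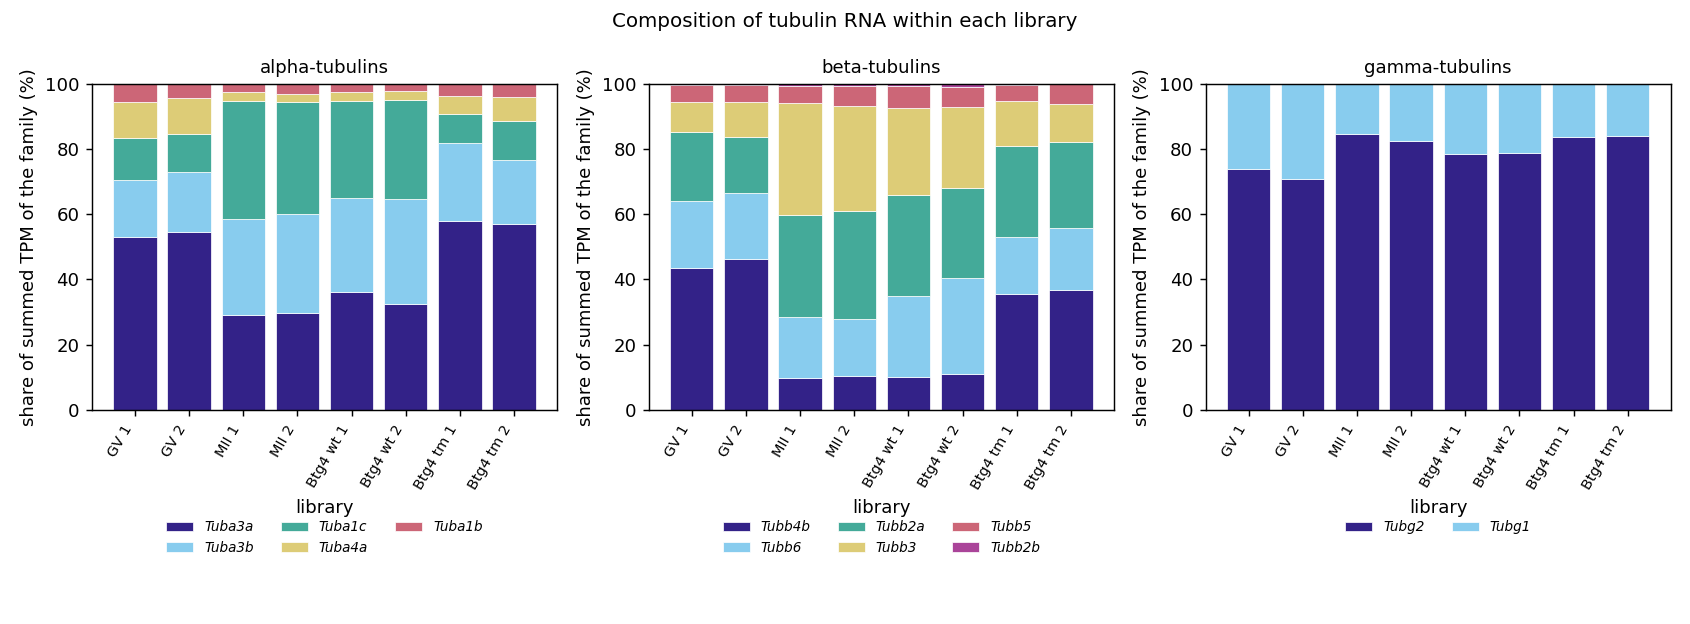
Share of the summed TPM of the 5 alpha-tubulins (left), 6 beta-tubulins (middle) and 2 gamma-tubulins (right) of the rule, in percent, as stacked bars for the 8 libraries. Tubb4b takes 43.6% and 46.1% of the beta bar in GV, 9.85% and 10.3% in MII, 9.99% and 10.97% in Btg4wt and 35.6% and 36.7% in Btg4tm.

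The gamma-tubulins were apart from the other tubulins. *Tubg2*, the gamma-tubulin isotype best known from brain and the early embryo and encoded on the plus strand of chromosome 11 from 101155907 to 101161787, was at 214 and 191 scaled TPM in GV and 376 and 358 in MII, with both MII libraries above both GV libraries. That difference passed the adjusted p but not the fold (log2 fold change 0.86 ± 0.10, adjusted p = 0.00011) and had the opposite sign under the mitochondrial scaling. *Tubg1*, the isotype of most dividing cells, was at 75.4 and 79.5 in GV and 68.3 and 76.1 in MII, where the groups overlapped. *Tubg2* held 74.0% and 70.6% of gamma-tubulin TPM in GV and 84.7% and 82.5% in MII. Of the 4 complex proteins, only *Tubgcp2*, a core subunit of the small complex, was called. Its values of 30.8 and 24.9 in GV and 7.97 and 8.05 in MII did not overlap and it fell (log2 fold change -1.67 ± 0.22, adjusted p = 0.00029). *Tubgcp5*, a subunit of the ring complex, was at 7.07 and 6.399 in GV and 13.5 and 9.42 in MII, and *Tubgcp3* at 0.872 and 0.78 in GV and 1.25 and 1.25 in MII. *Tubgcp4* was at 1.34 and 1.07 in GV and 0.591 and 0.543 in MII, and 47.4% of its 50-base words lie in other genes, *Trp53bp1* chiefly. *Tubgcp3* and *Tubgcp4* were thus close to the lowest level that could be tested.

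The 14 spindle kinesins, which slide, cross-link or shorten microtubules in dividing cells, moved in both directions. In MII 4 were called higher than in GV, where 12.5% of all genes were, and 1 lower, where 24% were. Their median log2 fold change was 0.27. The highest mean over the 8 libraries was that of *Kif23*, a central spindle motor of the centralspindlin complex, needed for cytokinesis, encoded on the minus strand of chromosome 9 from 61915905 to 61946774. *Kif23* was at 137 and 159 scaled TPM in GV and 319 and 304 in MII, so that the groups were well apart (log2 fold change 1.07 ± 0.10, adjusted p = 4.68e-05). *Kif20b*, a motor of late cytokinesis, went from 86.1 and 82.9 to 202 and 189 (log2 fold change 1.2 ± 0.09, adjusted p = 1.45e-05). *Kif18a*, which dampens chromosome oscillation at kinetochore microtubules, went from 31.9 and 30.3 to 74.8 and 71.7 (log2 fold change 1.21 ± 0.10, adjusted p = 2.55e-05). *Kif2a*, a depolymerase of the spindle poles, rose the most among all kinesins, from 27.2 and 20.2 to 70.9 and 75.1 (log2 fold change 1.596 ± 0.18, adjusted p = 9.61e-05), and 23.0% of its 50-base words lie in other genes, *Dimt1* chiefly. In each of these 4 the MII libraries were both above the GV libraries, and under the mitochondrial scaling each was instead below them, at log2 fold changes of -1.14, -1, -0.96 and -0.57 in the order given, so the rises are rises against the typical RNA only. *Kif23* lost its call without the first GV library, at 0.96, and on TPM as deposited, at 0.91.

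*Kif22*, the chromokinesin that pushes chromosome arms away from the poles, was the only spindle kinesin called lower in MII. The gene lies on the minus strand of chromosome 7 from 127027729 to 127042471. It was at 202 and 227 scaled TPM in GV, the highest mean of the 34 kinesins there, above *Kif23*, and at 70.99 and 62.7 in MII (log2 fold change -1.67 ± 0.12, adjusted p = 1.05e-05), and it was lower in MII under each scaling. The ratio of *Kif23* to *Kif22* within a library, which needs no scaling, was 0.68 and 0.7 in GV and 4.49 and 4.85 in MII. That pair was chosen after its values were seen, as the spindle kinesins with the highest levels that were called in opposite directions. The mitotic depolymerase *Kif2c* was at 113 and 105 in GV and 103 and 90.7 in MII, and the chromokinesin *Kif4* at 82.8 and 77.8 in GV and 99.4 and 90.9 in MII. *Kif20a*, another motor of cytokinesis, was at 67.5 and 60.6 in GV and 76.04 and 70.9 in MII. *Cdc23* shares 31.2% of the 50-base words of *Kif20a*, and other genes, *Pdzd11* chiefly, share 16.2% of those of *Kif4*. *Kif2c*, *Kif4* and *Kif20a* all had log2 fold changes within 0.24 of 0 and adjusted p of 0.083 or more. *Kif11*, the tetrameric motor that pushes the spindle poles apart, was at 24.6 and 23.6 in GV and 41.7 and 36.97 in MII without overlap, and passed the adjusted p alone (log2 fold change 0.68 ± 0.15, adjusted p = 0.00508). *Kif14*, which works with citron kinase in cytokinesis, did likewise at 34.5 and 42.2 in GV and 67.1 and 74.5 in MII (log2 fold change 0.87 ± 0.13, adjusted p = 0.000545). *Kif18b*, a regulator of astral microtubule length, was at 6.68 and 8.57 in GV and 3.16 and 4.22 in MII (log2 fold change -0.88 ± 0.20, adjusted p = 0.00556). It passed the adjusted p but not the fold, and was called lower on TPM as deposited, at -1.02, and with a pseudocount of 0.1, at -1.03.

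The remaining spindle motors were near the lowest level tested. The minus-end motor *Kifc1* was between 1.37 and 3.25 scaled TPM in the 8 libraries, its near copy *Kifc5b* between 0.277 and 2.24, and *Kif15*, which can stand in for *Kif11*, between 1.05 and 1.79. None of the 3 was called in any comparison, and the coding sequences of *Kifc1* and *Kifc5b* are 98.1% identical, so their reads cannot be assigned with certainty.

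Of the 14 transport kinesins 12 were tested. In MII 3 of these were called higher, where 12.5% of all genes were, and 2 lower, where 24% were. The median log2 fold change of the 12 was 0.78. *Kif17*, a homodimeric motor known from dendrites and cilia, was the most abundant of them in GV and is encoded on the plus strand of chromosome 4 from 138250435 to 138301967. It was at 199.5 and 199.5 scaled TPM in GV and 47.5 and 37.8 in MII, a clear separation (log2 fold change -2.21 ± 0.14, adjusted p = 5.47e-06). *Kifc3*, a minus-end motor, was at 9.84 and 12.2 in GV and 3.86 and 2.67 in MII and fell as well (log2 fold change -1.503 ± 0.21, adjusted p = 0.000343). Of its exon bases 27.5% overlap other genes, so unstranded reads in the shared bases cannot be assigned. *Kif5b*, the ubiquitous conventional kinesin heavy chain, was at 15.6 and 12.2 in GV and 31.8 and 36.7 in MII (log2 fold change 1.25 ± 0.18, adjusted p = 0.000439). *Kif1b*, a carrier of mitochondria and synaptic vesicle precursors, was at 4.27 and 4.54 in GV and 11.5 and 10.8 in MII (log2 fold change 1.17 ± 0.16, adjusted p = 0.000354). The microtubule growth inhibitor *Kif21a* was at 1.403 and 1.75 in GV and 5.27 and 4.44 in MII (log2 fold change 1.18 ± 0.23, adjusted p = 0.00238). Those 3 motors rose without overlap of the groups, and under the mitochondrial scaling their log2 fold changes were -0.87, -0.77 and -0.44. *Kif3a* and *Kif3b*, the paired motors of kinesin-2, moved alike at different levels. *Kif3a* was at 64.5 and 75.6 in GV and 126 and 127 in MII (log2 fold change 0.84 ± 0.11, adjusted p = 0.000262), and *Kif3b* at 3.98 and 4.08 in GV and 8.004 and 8.22 in MII (log2 fold change 0.86 ± 0.19, adjusted p = 0.00413). *Kif5c*, at 11.8 and 10.5 in GV and 22.7 and 19.9 in MII, *Kif13b*, at 3.39 and 4.01 in GV and 7.403 and 6.08 in MII, and the endosomal motor *Kif16b*, at 16.8 and 17.9 in GV and 11.96 and 11.3 in MII, passed the adjusted p but not the fold. The log2 fold changes of these were 0.88, 0.72 and -0.54. *Kif13a* and *Kif21b* lay between 0.419 and 2.62 scaled TPM in the 8 libraries and were not called.

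Of the 6 ciliary and other kinesins 3 were tested and none was called in MII. *Kif24*, which limits cilium growth from the mother centriole, was at 9.03 and 11.3 scaled TPM in GV and 19.1 and 19.2 in MII (log2 fold change 0.86 ± 0.16, adjusted p = 0.00177). *Kif9* was at 6.17 and 5.82 in GV and 3.46 and 2.96 in MII (log2 fold change -0.73 ± 0.19, adjusted p = 0.0107), and *Kif27* between 0.421 and 1.57 in the 8 libraries. *Kif24* and *Kif9* passed the adjusted p alone, in opposite directions.

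**Figure D3:**
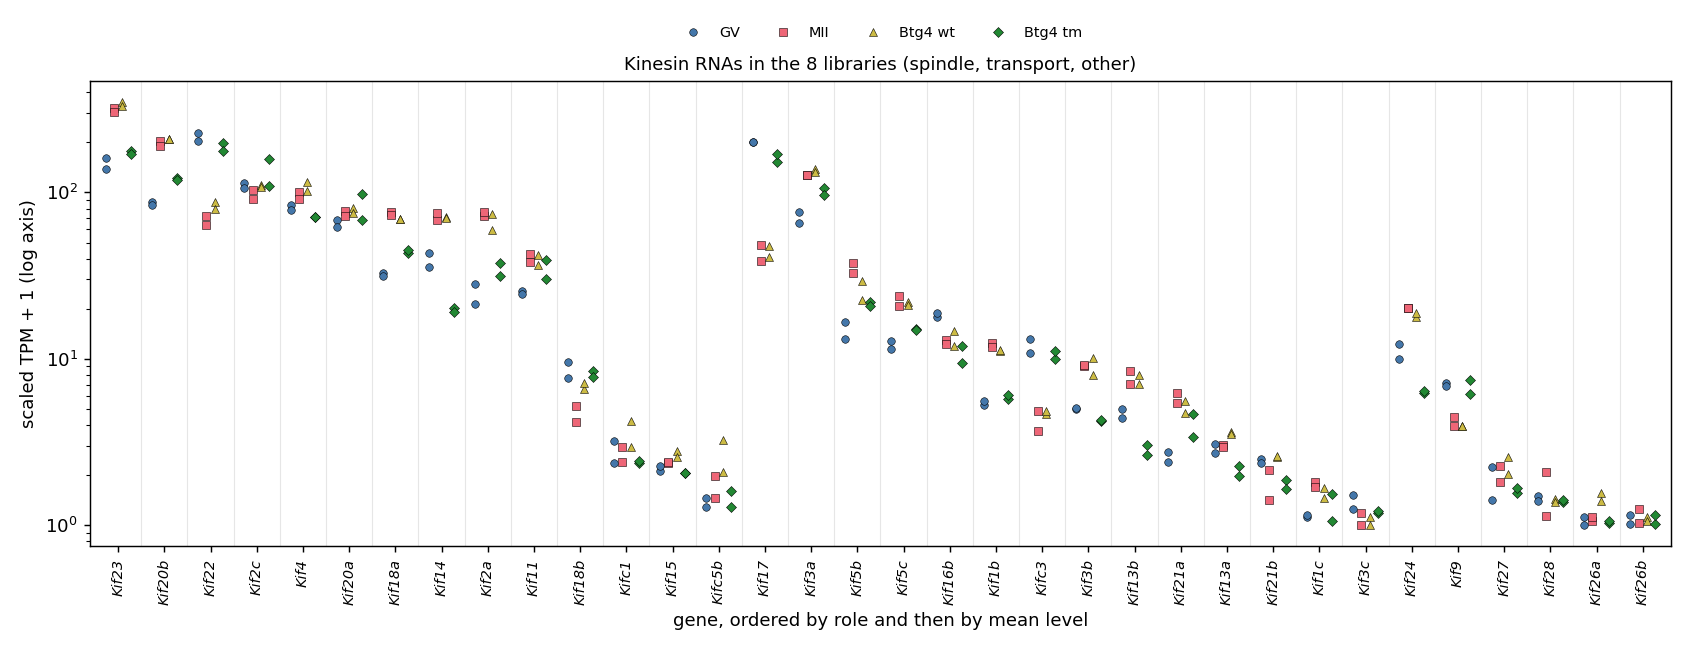
Scaled TPM + 1 on a log axis (vertical) for the 34 kinesin genes (horizontal, spindle, transport and other kinesins in turn, each by mean level), 1 point per library and 1 colour and shape per group. Kif23 rises from 137 and 159 in GV to 319 and 304 in MII while Kif22 falls from 202 and 227 to 71.0 and 62.7, and under the mitochondrial scaling Kif23 is lower in MII instead.

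By their labels Btg4tm and Btg4wt oocytes differ in the injected BTG4, and they share no library with the comparison of MII and GV. In Btg4tm, 9 of the 46 genes were called higher than in Btg4wt, where 18.1% of all genes were, and 4 lower, where 7.94% of all genes were. On the adjusted p alone 14 were higher, where 26.2% of all genes were, and 15 lower, where 23.3% were. The median log2 fold change was 0.85 over the alpha- and beta-tubulins, -0.53 over the kinesins and -0.23 over the 46 together. Under the mitochondrial scaling these medians move with that of all genes. Then 18 of the 46 were higher, where 43.6% of all genes were, and none was lower, where 0.494% were.

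The tubulins that fell the most in MII stood out among the higher ones. *Tubb4b* was at 87.5 and 81.5 scaled TPM in Btg4wt and 654 and 627 in Btg4tm, so both mutant libraries were several times above both wild-type ones. The fold change was 7.51 (log2 fold change 2.91 ± 0.13, adjusted p = 2.19e-06). *Tuba4a* went from 13.5 and 12.6 to 55.4 and 67.9 (log2 fold change 2.15 ± 0.17, adjusted p = 2.79e-05), *Tuba3a* from 174 and 139.6 to 581 and 517 (log2 fold change 1.81 ± 0.16, adjusted p = 5.8e-05), and *Tuba1b* from 12.2 and 9.55 to 37.01 and 36.03 (log2 fold change 1.67 ± 0.18, adjusted p = 0.000153). In all 4 the groups were apart. *Tubb2a*, not called in MII, was at 271 and 206 in Btg4wt and 513 and 455 in Btg4tm and was called higher only narrowly (log2 fold change 1.03 ± 0.14, adjusted p = 0.000455). It lost that call without the second Btg4wt library, at 0.83, or the first Btg4tm library, at 0.94. *Tubb6* was at 219 and 218 in Btg4wt and 320.3 and 325 in Btg4tm, and *Tubb5* at 60.5 and 45.6 in Btg4wt and 90.2 and 101 in Btg4tm. Both passed the adjusted p but not the fold, with log2 fold changes of 0.56 and 0.85, although both had fallen in MII. *Tuba3b* was at 138 and 139 in Btg4wt and 239 and 177 in Btg4tm (log2 fold change 0.57 ± 0.18, adjusted p = 0.0305), and *Tuba1c* at 143 and 131 in Btg4wt and 88.7 and 109 in Btg4tm (log2 fold change -0.47 ± 0.13, adjusted p = 0.0191). *Tubb3* showed overlapping groups, 232 and 186 in Btg4wt and 255 and 199 in Btg4tm.

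The makeup of the tubulin pool differed between the injected groups in the same genes. *Tubb4b* held 9.99% and 10.97% of beta-tubulin TPM in Btg4wt and 35.6% and 36.7% in Btg4tm, and *Tubb3* 26.5% and 25.01% against 13.8% and 11.6%. *Tuba3a* held 36.2% and 32.4% of alpha-tubulin TPM in Btg4wt and 58.1% and 57.0% in Btg4tm, and *Tuba1c* 29.7% and 30.3% against 8.86% and 12.03%. In each of these 4 genes the Btg4wt shares lay nearer to those of MII, and the Btg4tm shares nearer to those of GV. *Tubb2a* did not follow them, with 30.9% and 27.7% in Btg4wt and 27.9% and 26.6% in Btg4tm, where the groups overlapped. Nor did *Tubg2*, which held 78.5% and 78.6% of gamma-tubulin TPM in Btg4wt and 83.8% and 83.9% in Btg4tm. *Tubb6* held mean shares of 20.4% in GV, 18.05% in MII, 27.15% in Btg4wt and 18.2% in Btg4tm, so it did not follow either. The mean Btg4tm shares of *Tuba4a* (6.52%) and *Tuba1b* (3.84%) were nearer to MII, at 2.56% and 2.84%, than to GV, at 10.88% and 5.09%. *Tuba3b* and *Tubb2b* did follow the 4 genes. Summed beta-tubulin RNA was 810 ± 93.7 scaled TPM in Btg4wt (SD, n = 2) and 1775 ± 91.1 in Btg4tm, and summed alpha-tubulin RNA 456 ± 35.4 and 954 ± 67.1.

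Of the gamma-tubulin group only *Tubgcp2* was called in Btg4tm. It was at 8.74 and 7.14 scaled TPM in Btg4wt and 24.8 and 15.9 in Btg4tm, with the groups apart but the mutant libraries far from each other (log2 fold change 1.23 ± 0.22, adjusted p = 0.00228), and it lost its call without the first Btg4tm library, at 0.92. *Tubg2* was at 339 and 339 in Btg4wt and 433 and 405 in Btg4tm (log2 fold change 0.3045 ± 0.10, adjusted p = 0.0299), and *Tubg1* at 92.6 and 92.03 in Btg4wt and 83.9 and 77.8 in Btg4tm. *Tubgcp5* was at 12.9 and 10.2 in Btg4wt and 11.02 and 8.68 in Btg4tm, *Tubgcp3* at 1.05 and 1.41 in Btg4wt and 1.09 and 0.686 in Btg4tm, and *Tubgcp4* at 0.743 and 0.839 in Btg4wt and 0.771 and 1.26 in Btg4tm. None of those 3 passed the adjusted p.

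Among the kinesins, *Kif17*, *Kif22* and *Kifc3* were called higher in Btg4tm. *Kif17* was at 46.6 and 39.7 scaled TPM in Btg4wt and 151 and 169 in Btg4tm (log2 fold change 1.87 ± 0.14, adjusted p = 2.04e-05), *Kif22* at 87 and 78.03 in Btg4wt and 197 and 177 in Btg4tm (log2 fold change 1.17 ± 0.12, adjusted p = 0.000106), and *Kifc3* at 3.69 and 3.85 in Btg4wt and 9.01 and 10.1 in Btg4tm (log2 fold change 1.15 ± 0.21, adjusted p = 0.0022). The groups did not overlap in any of the 3, which are also the only kinesins called lower in MII. The ratio of *Kif23* to *Kif22* was 3.98 and 4.24 in the Btg4wt libraries and 0.902 and 0.952 in the Btg4tm libraries.

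*Kif14*, on the plus strand of chromosome 1 from 136466343 to 136531511, was the kinesin with the largest deficit in Btg4tm. Its levels were 70.2 and 68.9 scaled TPM in Btg4wt and 19.2 and 18.2 in Btg4tm (log2 fold change -1.84 ± 0.13, adjusted p = 1.64e-05), and the mutant libraries were below the GV libraries too, at 34.5 and 42.2. *Kif24* was at 16.9 and 17.8 in Btg4wt and 5.21 and 5.37 in Btg4tm (log2 fold change -1.55 ± 0.16, adjusted p = 0.000106), and *Kif13b* at 6.08 and 6.95 in Btg4wt and 1.63 and 2.02 in Btg4tm (log2 fold change -1.41 ± 0.20, adjusted p = 0.000617). *Kif3b*, at 9.07 and 6.97 in Btg4wt and 3.25 and 3.26 in Btg4tm, was the closest to the fold threshold (log2 fold change -1.07 ± 0.19, adjusted p = 0.00178), and lost its call without the first Btg4wt library, at -0.91. In all 4 the Btg4tm libraries were below both Btg4wt libraries, and all 4 calls ended under the mitochondrial scaling, with log2 fold changes of -0.78, -0.57, -0.58 and -0.17 that kept their sign. Relative to another spindle kinesin the deficit of *Kif14* needs no scaling. The ratio of *Kif14* to *Kif18a* was 1.08 and 1.39 in GV, 0.896 and 1.04 in MII, 1.03 and 1.01 in Btg4wt and 0.456 and 0.412 in Btg4tm, a pair again chosen after its values were seen.

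The spindle kinesins that rose in MII were lower in Btg4tm in value but were not called. *Kif23* was at 346 and 331 scaled TPM in Btg4wt and 177 and 168 in Btg4tm, *Kif20b* at 208 and 207 in Btg4wt and 122 and 118 in Btg4tm, *Kif18a* at 68.3 and 68.3 in Btg4wt and 42.03 and 44.3 in Btg4tm, and *Kif2a* at 72.9 and 58.2 in Btg4wt and 30.6 and 36.6 in Btg4tm. Each passed the adjusted p, with log2 fold changes of -0.97, -0.79, -0.65 and -0.94, and under the mitochondrial scaling the 4 values were above 0, from 0.12 to 0.42. *Kif4* was at 114 and 102 in Btg4wt and 69.97 and 69.9 in Btg4tm (log2 fold change -0.62 ± 0.11, adjusted p = 0.00186). *Kif11* was at 35.8 and 40.8 in Btg4wt and 37.98 and 29.2 in Btg4tm, *Kif2c* at 109.6 and 107 in Btg4wt and 159 and 108 in Btg4tm, *Kif20a* at 79.4 and 74.01 in Btg4wt and 96.9 and 67.4 in Btg4tm, and *Kif18b* at 5.59 and 6.12 in Btg4wt and 7.497 and 6.83 in Btg4tm. The last 4 did not pass the adjusted p. Of the transport kinesins that rose in MII, *Kif1b* was at 10.1 and 10.3 in Btg4wt and 4.72 and 5.09 in Btg4tm and passed the adjusted p (log2 fold change -0.93 ± 0.16, adjusted p = 0.00184), while *Kif5b*, at 28.2 and 21.4 in Btg4wt and 20.97 and 19.7 in Btg4tm, and *Kif21a*, at 4.56 and 3.701 in Btg4wt and 2.38 and 3.63 in Btg4tm, did not. *Kif3a* was at 137 and 132 in Btg4wt and 105 and 96.2 in Btg4tm (log2 fold change -0.41 ± 0.11, adjusted p = 0.0149), which left the 2 motors of kinesin-2 with log2 fold changes of -0.41 and -1.07.

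Set side by side, 8 of the 10 genes that fell in MII were called higher in Btg4tm, which is 80% of the first list and 88.9% of the 9 genes of the second. Over all genes the same overlap was 70% of the 3351 lower in MII and 92.5% of the 2534 higher in Btg4tm, so the kinesin and tubulin genes were near the background. The 8 were *Tubb4b*, *Tuba4a*, *Tuba3a*, *Tuba1b*, *Tubgcp2*, *Kif17*, *Kif22* and *Kifc3*, and the 2 that fell in MII without a call in Btg4tm were *Tubb5* and *Tubb6*. In the other direction the lists did not meet. None of the 7 kinesins that rose in MII was among the 4 called lower in Btg4tm, where over all genes 26.5% of those higher in MII were. That count of 0 depends on the fold threshold. *Kif1b* was called lower in Btg4tm with a pseudocount of 0.1 (-1.04), *Kif2a* without the second Btg4wt library (-1.10) or the second Btg4tm library (-1.06), and *Kif23* without the first Btg4tm library (-1.003). *Kif14*, *Kif24*, *Kif13b* and *Kif3b* had passed the adjusted p in MII with log2 fold changes of 0.72 to 0.87, under the fold that a call needs. *Tubb2a*, the ninth gene higher in Btg4tm, was not called in MII. The remaining 24 genes were called in neither comparison.

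**Figure D4:**
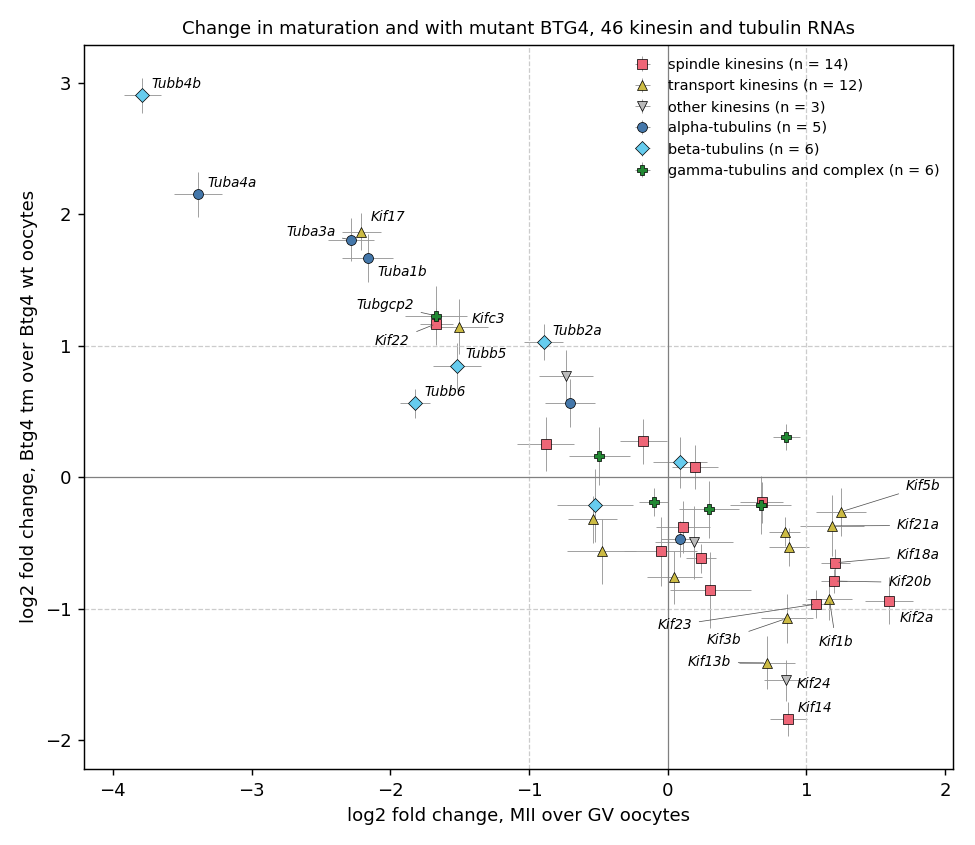
Log2 fold change in MII over GV (horizontal) against Btg4tm over Btg4wt (vertical) for the 46 genes tested, coloured by role, with bars for ± 1 SE and dashed lines at the fold a call needs. Tubb4b lies at the upper left, at -3.79 and 2.91, and Kif14 at the bottom, at 0.87 and -1.84, where under the mitochondrial scaling every kinesin to the right of 0 shifts to the left of it.

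Between Btg4wt and MII oocytes the limma test called none of the 46 genes higher or lower, where 0% of all genes were in either direction, and the smallest adjusted p was 0.12, for *Tubb6*. At an unadjusted p under 0.05 there were 7 of the 46 and 1655 of the 13968 genes. *Tubb6* was at 131 and 131 scaled TPM in MII and 219 and 218 in Btg4wt, so the injected libraries were above the others (log2 fold change 0.73 ± 0.11, SE), and *Tuba3a* at 98.3 and 107 in MII and 174 and 139.6 in Btg4wt (0.60 ± 0.16). *Kif22*, *Kif18b*, *Kif5b*, *Tuba4a* and *Tubg1* made up the rest of the 7. All 46 log2 fold changes lay between -0.46 and 0.73.

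Btg4tm and GV oocytes, which differ in stage as well as injection, gave few calls. *Tubg2* alone was called higher, where 1.02% of all genes were, and none was called lower, where 1.02% were. *Tubg2* was at 214 and 191 scaled TPM in GV and 433 and 405 in Btg4tm, well apart (log2 fold change 1.04 ± 0.10, SE, adjusted p = 0.00411). That call was narrow, with values of 0.96 without the second GV library, 0.9974 without the first Btg4tm library, 0.88 on TPM as deposited and 0.41 with mitochondrial scaling, none of which passed. On the adjusted p alone *Kif18a*, *Kif20b*, *Kif3a* and *Tubg2* were higher in Btg4tm, at log2 fold changes of 0.46 to 1.04. *Kif14*, *Kif24*, *Kif16b*, *Tuba4a*, *Tubb4b* and *Tubb6* were lower, at -0.99 to -0.52. The Btg4tm libraries thus held *Tubb4b* at 654 and 627, short of the 894 and 1166 of GV.

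Genes that work with kinesins and tubulins were read from lists of related function. Of 12 tubulin folding genes tested, 7 were called lower in MII and none higher, and 5 were higher in Btg4tm and none lower, with median log2 fold changes of -1.11 and 0.88. Of all genes, as for the lists that follow, 24% were lower and 12.5% higher in MII, and 18.1% higher and 7.94% lower in Btg4tm. On the adjusted p alone 8 folding genes were lower and 2 higher in MII, the 2 being *Pfdn2* (0.93) and *Pfdn4* (0.57), and 8 were higher and none lower in Btg4tm. *Pfdn6*, a prefoldin subunit, was at 138 and 146 scaled TPM in GV, 5.17 and 5.92 in MII, 6.62 and 4.97 in Btg4wt and 103 and 110.5 in Btg4tm. *Tbcc*, the cofactor of the last folding step, was at 188 and 191, 17.8 and 14.98, 20.1 and 16.2 in Btg4wt and 136 and 124 in Btg4tm in that order, and *Tbcb*, which receives alpha-tubulin, at 256 and 250.5, 27.7 and 30.6, 24.2 and 25.7 in Btg4wt and 219 and 237 in Btg4tm. All 3 fell in MII by log2 fold changes of -4.45, -3.46 and -3.08 and were higher in Btg4tm by 4, 2.78 and 3.14.

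Of 13 genes for gamma-tubulin recruitment and augmin, 2 were higher and 5 lower in MII, and 3 higher and 1 lower in Btg4tm. *Mzt2*, a small partner of the gamma-tubulin complex, was at 72.1 and 68.6 scaled TPM in GV, 3.33 and 5.4 in MII, 5.19 and 5.002 in Btg4wt and 50.8 and 49.5 in Btg4tm. Its counterpart *Mzt1* went the other way in MII, from 59.7 and 58.4 to 122 and 123, as did *Nedd1*, which docks the complex, from 142 and 129 to 299 and 324. Both were instead lower in MII under the mitochondrial scaling, at log2 fold changes of -1.15 and -1.01, while *Mzt2* was lower under both.

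Of 17 genes for microtubule ends, stability and severing, 3 were higher and 3 lower in MII, and 2 higher and 3 lower in Btg4tm. *Clasp2*, *Mapre1* and *Tpx2*, 3 microtubule-binding regulators of the spindle, rose in MII by 1.32, 1.15 and 1.14 on the log2 scale, and were at -0.83, -1.04 and -1.08 under the mitochondrial scaling. *Clasp1*, *Ckap5* and *Clip1*, which act at plus ends, were the 3 lower in Btg4tm, at -1.71, -1.37 and -1.24, and none of these was called under the mitochondrial scaling, at -0.84, -0.29 and -0.21.

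Of 11 tubulin modification genes, 1 was higher and 3 lower in MII, and 2 higher and 3 lower in Btg4tm. *Svbp*, the partner of the vasohibin detyrosinases, was at 90.9 and 88.1 scaled TPM in GV, 25.97 and 26.4 in MII, 26.03 and 25.2 in Btg4wt and 67.05 and 85.1 in Btg4tm. The glutamylases *Ttll1* and *Ttll5* went opposite ways, *Ttll1* from 12.98 and 12.3 in GV to 4.54 and 2.37 in MII and *Ttll5* from 6.38 and 7.35 to 16.9 and 15.3, with 10.2 and 10.1 for *Ttll1* and 4.79 and 5.12 for *Ttll5* in Btg4tm, and the rise of *Ttll5* became -0.90 on the log2 scale under the mitochondrial scaling. Of 6 kinesin partners tested, with the kinetochore motor *Cenpe* counted among them, *Kifbp* fell in MII and was higher in Btg4tm (log2 fold changes -1.65 and 1.18), and *Cenpe* rose in MII (1.02, and -1.18 under the mitochondrial scaling) without a call in Btg4tm (-0.73).

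Some maternal mRNAs carry a cytoplasmic polyadenylation element near their 3′ end, which can lengthen the tail in maturation. TTTTAT or TTTTAAT (T for U, sense strand only) was searched in the last 100 bases of the 3′ UTR of the longest complete coding transcript of GENCODE M21. Sites of 3 spindle kinesins are shown, since 2 of them rose in MII, with the element in capitals and 30 bases in all.
Kif11: aattttttaaattaaattaTTTTAATtttt
Kif18a: aatgtgctaataTTTTATtacttggtatat
Kif20b: cttgtatataaTTTTAATtcaataaatata
The element began 11 bases from the end in *Kif11*, 37 in *Kif18a* and 28 in *Kif20b*. The last AATAAA or ATTAAA, the letters of a poly(A) signal, began 20, 21 and 19 bases from the end in the same order. Only in *Kif11* did the element thus lie after the signal. *Kif23* and *Kif2a*, spindle kinesins that also rose in MII, had no match to the element. All 3 genes are on the plus strand, *Kif11* on chromosome 19 from 37376403 to 37421859, *Kif18a* on chromosome 2 from 109280738 to 109341747 and *Kif20b* on chromosome 19 from 34922361 to 34975745. The element was found in 9 of the 41 kinesin and tubulin genes with at least 100 bases of 3′ UTR, which is 22%, and in 20% of the 10514 genes tested that had such a UTR. The other 6 were *Kif27*, *Kifc1*, *Kifc5b*, *Tubb2b*, *Tubb3* and *Tubgcp3*. Of the 9 with the element, 2 were called higher in MII and none lower, and none was called in Btg4tm. Of the 32 without it, 5 were higher and 6 lower in MII, and 5 higher and 4 lower in Btg4tm. Among all genes with the element, 446 of 2105 were higher and 249 lower in MII, and 184 higher and 203 lower in Btg4tm. Among all genes without it, 975 of 8409 were higher and 2103 lower in MII, and 1571 higher and 720 lower in Btg4tm. The median log2 fold change in MII over GV was 0.49 with the element and -0.04 without among all genes, and 0.30 with and 0.10 without among the 41. Over the kinesins alone the order was the other way, 0.49 in the 6 with the element and 0.72 in the 21 without. A match is a string of letters and not a tested site, and *Tubb3*, with the element, and *Tubb4b*, without it, differ in more than this.

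Transcript length differed between the genes that moved each way. The 10 genes that fell in MII had a median transcript length of 2382 bases and the 7 that rose one of 5564, against 3001 over the 11075 tested genes with a complete coding transcript. Alpha- and beta-tubulin transcripts were short, with a median of 1775 bases over 11 genes, and kinesin transcripts long, with 4983 over 29. The part of length in these changes was not tested.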

How the data were processed

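Polyadenylated RNA was measured with Smart-seq2 in 8 libraries of 15 mouse oocytes each, 2 per group, grouped and numbered as in the sample titles. The labels describe 3 samples per group, of which 2 are analysed here. Per the labels and the methods, reads were trimmed with Trim Galore 0.6.10, aligned to GRCm38 with HISAT2 2.2.0 and counted on exons without strand by featureCounts 2.0.6, dropping reads of low mapping quality. The authors deposited TPM per gene symbol. The gene lengths behind the TPM are not given in the sources used here, and depth cannot be had from TPM, so precision rests on 2 libraries per group.

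TPM were divided by median-of-ratios factors and fitted as log2(TPM + 1) with limma 3.58.1 in R 4.3.3 (lmFit, contrasts, eBayes with trend) over all 8 libraries and 13968 genes, those that reached 1 TPM in 2 or more libraries. The procedure was also run on simulated data in which few genes were changed, in MII over GV only. That run does not test the scaling where many RNAs change. Genes were called at a Benjamini-Hochberg adjusted p under 0.05 with a log2 fold change beyond 1 in either direction. Per-library values were printed for the 10 most abundant genes, for called genes, for spindle kinesins and for the gamma-tubulin group. Other lists were named by at most 2 of their largest changes in each direction, with exceptions chosen after their values were seen (*Tpx2* and *Clip1*). The genes and lists were chosen with earlier results of these data known. Sequences, positions and lengths came from GENCODE M21 on GRCm38, in which 11075 of the 13968 genes matched a complete coding transcript by symbol.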

Additional observations from a re-analysis of the deposited data

How the results depend on the processing

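Scaling had the largest effect. With the mitochondrially encoded RNAs as the reference, 38 of the 46 genes were lower in MII than in GV and 0 higher. Over all genes 81.6% were lower and 0.05% higher. The median log2 fold change of the 46 was -1.57. In Btg4tm over Btg4wt 0 were lower, where 0.494% of all genes were, and 18 higher, where 43.6% were, with a median of 0.69. In Btg4wt over MII 1 was higher (*Tubb6*), where 0.494% of all genes were, with a median of 0.49. In Btg4tm over GV 10 were lower, where 21.3% of all genes were, and 0 higher, where 0.272% were. The median there was -0.61. The sign in MII over GV turned for 22 genes, to log2 fold changes of -1.47 for *Kif11*, -1.41 for *Kif13a*, -1.13 for *Kif13b*, -1.30 for *Kif14*, -1.14 for *Kif15*, -0.96 for *Kif18a*, -0.77 for *Kif1b*, -1.99 for *Kif20a*, -1 for *Kif20b*, -0.44 for *Kif21a*, -1.14 for *Kif23*, -1.21 for *Kif24*, -0.57 for *Kif2a*, -1.35 for *Kif3a*, -1.03 for *Kif3b*, -1.95 for *Kif4*, -0.87 for *Kif5b*, -1.21 for *Kif5c*, -2.11 for *Tuba1c*, -2.12 for *Tubb3*, -1.35 for *Tubg2* and -1.31 for *Tubgcp5*. Which reference is nearer to the RNA content of an oocyte was not tested.

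Without scaling, the median in MII over GV was -0.063, 12 genes were lower in MII, with *Kif18b* (-1.02) and *Tubb2a* (-1.05) newly called, and 6 higher, without *Kif23*, and in Btg4tm over GV 1 gene (*Kif14*) was lower and 0 higher. A pseudocount of 0.1 also made *Kif14* the 1 gene lower in Btg4tm than in GV, *Kif18b* lower in MII (-1.03, 11 genes in all), and *Kif13a* (-1.15) and *Kif1b* (-1.04) lower in Btg4tm than in Btg4wt (6 in all). With no minimum fold change, an alternative chosen after seeing the data, 16 genes were higher in MII, 15 lower and 14 higher in Btg4tm than in Btg4wt, and 6 lower and 4 higher in Btg4tm than in GV. With each library left out in turn, the median in MII over GV ranged from -0.080 to 0.16, and in Btg4tm over GV 0 to 2 genes were lower and 0 to 1 higher. A single library moved other calls too. *Kif14* (1.01) and *Kif24* (1.005) became higher in MII without the second GV library, *Kif18b* lower without the first GV (-1.04) or the second MII library (-1.045), *Kifc5b* lower in Btg4tm without the first Btg4wt library (-1.18), *Kif23* without the first Btg4tm library (-1.003), *Kif2a* lower in Btg4tm without the second Btg4wt library (-1.10) or the second Btg4tm library (-1.06), and *Tubb5* higher in Btg4tm without the first Btg4wt library (1.05). A group left with 1 library is assumed to vary like the others. With the replicate block the counts stayed at 7 higher and 10 lower in MII, 9 and 4 in Btg4tm, 0 and 0 in Btg4wt over MII, and 1 and 0 in Btg4tm over GV. Libraries with the same number did not deviate together across genes (correlations of -0.05 to 0.06). The labels do not say whether such libraries were collected together, and these correlations cannot decide it. No filter, a filter at 5 TPM and a fit on 4 libraries alone changed no call of a gene they tested.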
